A study of Homo sapiens with 4 samples.

Results

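The mRNAs of 9 nonsense-mediated decay factors (SMG1, SMG5, SMG6, SMG8, SMG9, UPF1, UPF2, UPF3A and UPF3B) were followed in RNA recovered with the demethylase ALKBH5. They were taken by gene symbol from a table of 26830 symbols, and all 9 had a row. The cells were NOMO-1, a human acute myeloid leukaemia line with monocytic features, and ALKBH5 is the enzyme that removes the methyl group from N6-methyladenosine in RNA. Both groups came from the same kind of cell: NOMO-1 that overexpressed 3xFlag-tagged ALKBH5 from a lentivirus. Puromycin selection was followed by sorting for GFP and by UV crosslinking. The input group (libraries 1 and 3) is RNA taken without antibody, and the Flag-IP group (libraries 1 and 3) is RNA pulled down with an anti-Flag antibody, a method known as RNA immunoprecipitation sequencing. The tagged protein was overexpressed in every library, the promoter that drove it is not given in the sources used here, and a pull-down from untagged cells is not analysed here, so the background of the pull-down has no measurement. Nothing in the labels says whether libraries 1 and 3 came from separate cultures, so each p-value refers to spread among libraries that may be technical only.

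Nonsense-mediated decay is the pathway that destroys mRNAs on which translation stops too early. In the usual account, the helicase UPF1 joins the release factors at a stalled ribosome, and UPF2 with UPF3A or UPF3B links it to an exon junction complex left downstream by splicing. The kinase SMG1, held in check by SMG8 and SMG9, phosphorylates UPF1, and the phosphorylated protein recruits SMG6, which cuts the mRNA near the stop codon, and SMG5, which helps bring in deadenylation and decapping. Several of these factors are known to be encoded by mRNAs that are themselves substrates of the pathway.

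Levels are in TPM, a relative abundance corrected for transcript length that sums to the same total in each library. TPM keeps no sequencing depth, so no counting error can be given. Structural RNAs such as ribosomal RNA took 96.8% and 96.3% of TPM in the inputs and 92.5% and 93.6% in the Flag-IP libraries, which left 3.20% and 3.65% of input and 7.49% and 6.42% of Flag-IP to all other genes. Differences were therefore given on 2 scales, both as log2(TPM + 1), Flag-IP minus input: TPM as deposited, and an aligned scale, on which each library was first divided by a median-ratio factor that puts the typical tested gene at the same level in all. Over the 6487 genes that averaged 1 TPM or more the median difference was 0.84 on the deposited scale and -0.01 on the aligned scale. With 1 added to each value, a log2 difference understates the change of a gene near 0 TPM. Of the 13 myeloid and monocytic markers listed, 7 were at 1 TPM or more in all 4 libraries. The summed level of the 13 was 70.75 and 83.5 TPM in input and 127.29 and 122.35 TPM in Flag-IP. CD14, a monocyte marker, was listed at 0 in all, and CSF1R, ITGAM, FCGR1A and MPO stayed below 1 TPM in all. LYZ reached 1 TPM only in Flag-IP 1 (1.63 TPM). Of the 6 T and NK cell markers only NKG7 reached 1 TPM and 4 were listed at 0 in all. NKG7 was at 12.02 and 14.6 TPM in input and 21.98 and 23.87 TPM in Flag-IP. No B or erythroid marker reached 1 TPM. Of the 6 epithelial and stromal markers 3 were listed at 0 in all, and PECAM1, which myeloid cells also carry, was the only one to reach 1 TPM, at 0.53 and 0.81 TPM in input and 2.24 and 2.03 TPM in Flag-IP. ALKBH5 itself was at 4.62 and 4.91 TPM in input and 10.09 and 8.91 TPM in Flag-IP, which does not check the labels because both groups carried the transgene.

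The comparison of the groups asks which of these mRNAs came down with ALKBH5, and to what extent beyond the typical gene. SMG1, SMG5, SMG6 and UPF1 were higher in Flag-IP on both scales, and SMG1 had the widest difference of the 9. SMG9, UPF2, UPF3A and UPF3B were higher on the deposited scale but did not pass the test on the aligned scale, where UPF3A and UPF3B lay below input. SMG8 was too low to enter the test. The ratio of mean TPM, Flag-IP over input, ran from 1.61 for UPF3B to 16.4 for SMG1, against a median of 2.38 over the tested genes above 0 in input. All libraries were bulk lysates, so a level cannot tell apart fewer cells with an mRNA and less of it per cell.

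**Figure D1:**
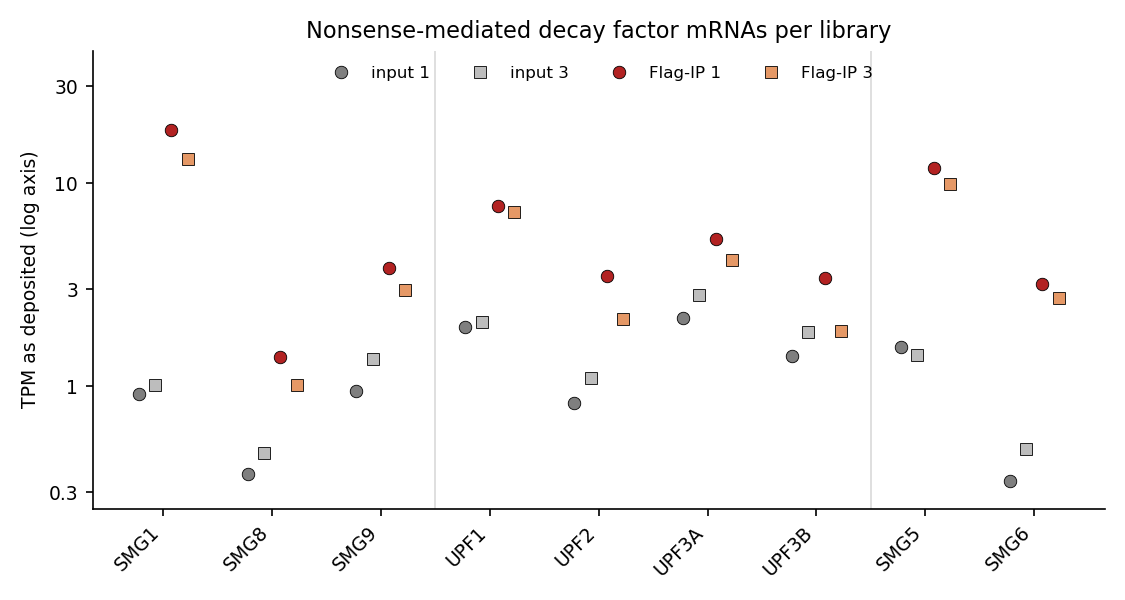
TPM of the 9 decay factor mRNAs in each library, on a log axis: grey points are the 2 inputs, red and orange points the 2 Flag-IP libraries. SMG1 goes from about 1 TPM in both inputs to 18.33 and 13.23 TPM in Flag-IP, while for UPF3B Flag-IP 3 (1.87 TPM) is level with input 3 (1.86 TPM).

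SMG1, the kinase that phosphorylates UPF1, stood at 0.92 and 1.01 TPM in input and at 18.33 and 13.23 TPM in Flag-IP, so the groups were far apart. Its mean went from 0.965 ± 0.0636 to 15.8 ± 3.61 TPM (SD, n = 2), a ratio of 16.4. In the limma fit across all genes the difference was 2.15 ± 0.11 (SE) on the aligned scale, adjusted p = 0.000386, and 3.08 ± 0.21 on the deposited scale, adjusted p = 2.82e-44. The prior degrees of freedom of the deposited fit were infinite, so its p-values may be too small. Its input mean, like that of UPF2, was just under the 1 TPM filter, and with no filter its aligned difference was 2.11 ± 0.09 (limma adjusted p = 0.00906). Of the 6487 tested genes, 24 had a larger difference than SMG1 on the aligned scale and 19 on the deposited scale. SMG1 lies on the minus strand of chromosome 16 (GRCh38, 18804853-18926454), and its longest annotated mRNA has 16115 bases in 63 exons.

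The part of SMG1 nearest its 5′ end exists in several near-identical copies on the same chromosome, the SMG1P pseudogenes, which limits what a single row of the table can say. Of all stretches of 50 bases in the SMG1 mRNA, 17.2% also occurred in an annotated SMG1P copy. They lay between positions 24 and 4613 of the mRNA, counted from its 5′ end and reaching into exon 29, and 60.5% of the stretches up to there were shared. The last 11502 bases, which encode the kinase domain and hold the 3′ untranslated region, shared none with a copy. A window of 90 bases in exon 11 (chr16:18879628-18879717, GRCh38, minus strand) is printed as an example of a close match. It was chosen for presence in the most copies with the fewest mismatches, so it does not show how close they are elsewhere. Capitals mark a base that differs from SMG1. SMG1P2, SMG1P5, SMG1P6 and SMG1P7 have the SMG1 sequence without a change, and SMG1P3 has the sequence of SMG1P1, with 1 difference. The third line is a coding window of SMG1 in exon 30 (chr16:18854815-18854904, minus strand), past the shared part, to which the closest stretch of any listed copy has 50 to 54 mismatches in 90 bases.
SMG1 exon 11: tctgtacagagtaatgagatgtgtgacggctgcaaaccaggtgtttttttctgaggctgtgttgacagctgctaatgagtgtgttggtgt
SMG1P1 and SMG1P3: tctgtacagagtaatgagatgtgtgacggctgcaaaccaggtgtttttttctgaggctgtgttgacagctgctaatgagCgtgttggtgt
SMG1 exon 30: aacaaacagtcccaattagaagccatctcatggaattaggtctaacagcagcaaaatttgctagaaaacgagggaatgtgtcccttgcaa

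The copies were also far higher in Flag-IP. SMG1P1 went from 1.10 and 0.51 TPM to 46.76 and 34.30 TPM, a ratio of means of 50.3, and no tested gene had a larger difference on either scale (3.60 ± 0.23 on the aligned scale, limma adjusted p = 0.000511). SMG1P3 went from 0.28 and 0.82 to 31.16 and 20.80 TPM, with 2 genes above it. SMG1P2 went from 0.29 and 0.32 to 7.46 and 5.55 TPM. In Flag-IP the first 2 of these copies stood above SMG1 itself and the third below it.

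SMG1P6 stood at 0.09 and 0.08 TPM in input and 7.95 and 5.23 TPM in Flag-IP. SMG1P5 was listed at 0 and 0.02 TPM in input and was at 5.03 and 3.71 TPM in Flag-IP. SMG1P7 was listed at 0 in both inputs and was at 0.66 and 0.62 TPM in Flag-IP, with a mean too low for the test. In all 6 copies each Flag-IP library exceeded each input on both scales. That was so for 93.1% of all tested genes as deposited and for 37.0% on the aligned scale. The aligned differences of the 5 tested copies ran from 1.81 to 3.60. Each of them averaged under 1 TPM in input and passed the filter on low values only through Flag-IP, where it is high, so the calls of those that passed are no support for a difference of the group.

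Summed over SMG1 and its 6 listed copies, the level was 2.68 and 2.76 TPM in input and 117.35 and 83.44 TPM in Flag-IP, with a ratio of 36.9. SMG1 itself made up 34.3% and 36.6% of that sum in input and 15.6% and 15.9% in Flag-IP, so the copies gained more than the gene. The ratio of SMG1P1 to SMG1 was 1.20 and 0.505 in input and 2.55 and 2.59 in Flag-IP. With SMG1 replaced by the sum, the aligned difference was 3.64, limma adjusted p = 0.000322. The transcript taken for each copy shares 33.4% to 53.5% of its stretches of 50 bases with SMG1 and 43.6% to 98.1% with any other gene. How reads that fit several of these genes were divided is not given in the sources used here, and where along the SMG1 mRNA the reads lay cannot be seen in a value per gene. The single rows of SMG1 and its copies are therefore uncertain. The sum is not free of this either, because TPM divides by length, and a read given to a copy, whose longest transcripts have 2704 to 4262 bases, adds more TPM than one given to SMG1.

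**Figure D2:**
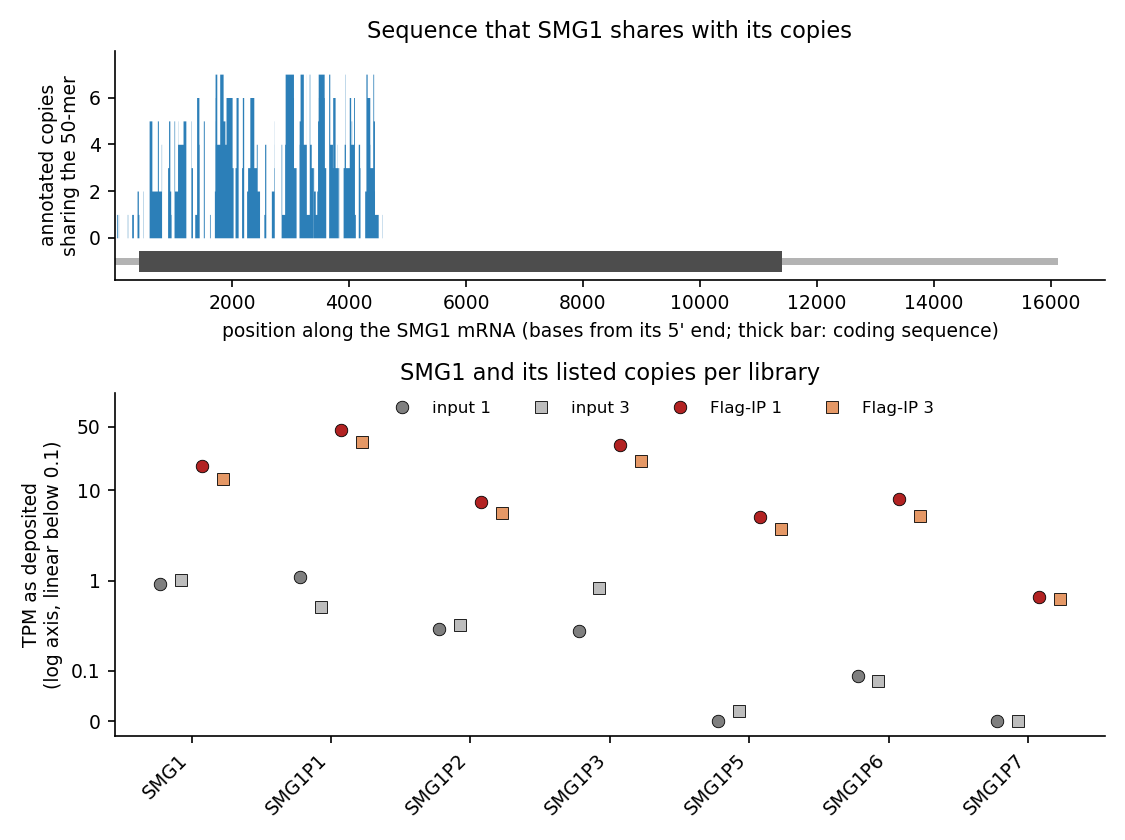
Top: along the SMG1 mRNA (x, bases from the 5′ end, coding sequence as the thick bar), the number of annotated SMG1P copies that share the stretch of 50 bases starting there; all shared stretches end by position 4613. Bottom: TPM of SMG1 and the 6 listed copies per library (log axis, linear below 0.1), with the 2 Flag-IP libraries above the 2 inputs for each. As deposited that was so for 93.1% of all tested genes.

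SMG8 (chromosome 17, 59209400-59215247, plus strand; coordinates throughout are GRCh38 gene spans) and SMG9 (chromosome 19, 43727992-43754990, minus strand) encode the partners that hold the kinase in check. Neither stood apart from the typical gene as SMG1 did. SMG9 was at 0.95 and 1.36 TPM in input and 3.84 and 2.97 TPM in Flag-IP, for a ratio of 2.95. It was higher on the deposited scale (1.03 ± 0.21), but its aligned difference was 0.20 ± 0.11, limma adjusted p = 0.197. SMG8 was at 0.37 and 0.47 TPM in input and 1.39 and 1.01 TPM in Flag-IP, with a ratio of 2.86. With no filter on low values its differences were 0.63 ± 0.15 as deposited (limma adjusted p = 0.0279) and 0.08 ± 0.09 when aligned (limma adjusted p = 0.595).

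Ratios between members within a library do not depend on how the libraries are scaled. SMG1 over SMG9 was 0.968 and 0.743 in input and 4.77 and 4.45 in Flag-IP. SMG1 over SMG8 was 2.49 and 2.15 in input and 13.2 and 13.1 in Flag-IP. SMG8 over SMG9 was 0.389 and 0.346 in input and 0.362 and 0.340 in Flag-IP, so the groups overlapped. No shift between the 2 partners could be seen beyond the spread of the libraries, while the ratios of SMG1 to either did not overlap between groups.

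UPF1 (chromosome 19, 18831938-18868236, plus strand), the helicase at the centre of the pathway, was at 1.97 and 2.08 TPM in input and 7.71 and 7.21 TPM in Flag-IP, with little spread in either group and a ratio of 3.68. Its aligned difference was 0.49 ± 0.11, limma adjusted p = 0.0175. This call was lost without input 3 (0.43, limma adjusted p = 0.0789) and without Flag-IP 3 (0.41, limma adjusted p = 0.0744), with no filter (0.46, limma adjusted p = 0.0603), and with the trend on transcript length removed (0.30, limma adjusted p = 0.0918). SMG1 over UPF1, the kinase over its substrate, was 0.467 and 0.486 in input and 2.38 and 1.83 in Flag-IP.

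UPF2 (chromosome 10, 11920022-12043170, minus strand), the adaptor between UPF1 and the UPF3 proteins, was at 0.83 and 1.10 TPM in input and 3.48 and 2.15 TPM in Flag-IP. Its ratio was 2.92, and its aligned difference of 0.16 ± 0.12 did not pass (limma adjusted p = 0.343). On that scale Flag-IP 3 fell between the inputs. With the length trend removed, the difference was -0.04.

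UPF3A and UPF3B, paralogs that join UPF2 to the exon junction complex, had the smallest ratios of the 9. UPF3A (chromosome 13, 114281584-114305817, plus strand) was at 2.17 and 2.81 TPM in input and 5.34 and 4.18 TPM in Flag-IP, with a ratio of 1.91. UPF3B (chromosome X, 119805311-119852998, minus strand) was at 1.41 and 1.86 TPM in input and 3.40 and 1.87 TPM in Flag-IP, with a ratio of 1.61, and Flag-IP 3 barely cleared input 3. The deposited differences were 0.72 ± 0.21 and 0.44 ± 0.21 (limma adjusted p = 0.00104 and 0.0408), both below the median gene.

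Relative to the typical gene both UPF3 mRNAs lay below input. In aligned TPM UPF3A was at 3.61 and 4.03 in input and 3.09 and 2.99 in Flag-IP. UPF3B was at 2.35 and 2.67 in input and 1.97 and 1.34 in Flag-IP. The groups did not overlap for either, and Flag-IP lay entirely below input for 37.1% of all tested genes. The differences, -0.25 ± 0.10 and -0.41 ± 0.14, did not pass the test (limma adjusted p = 0.0979 and 0.0645). UPF3B would be called lower with quantile scaling (-0.48, limma adjusted p = 0.0453), with structural RNAs left out (-0.62, limma adjusted p = 0.0361), without Flag-IP 1 (-0.52, limma adjusted p = 0.0458) and with the crossed replicate block (-0.41, limma adjusted p = 0.0378). On the deposited scale its call was lost without input 1, input 3 or Flag-IP 1 (0.31, 0.56 and 0.13, limma adjusted p = 0.366, 0.0933 and 0.552), and that of UPF3A without input 1 (0.59, limma adjusted p = 0.0953). The deposited call of UPF3B was also lost with the replicate block, with no filter and with no mean-variance trend (limma adjusted p = 0.15, 0.217 and 0.0657). UPF3A over UPF3B was 1.54 and 1.51 in input and 1.57 and 2.24 in Flag-IP.

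SMG5 and SMG6, which carry the decay signal onward from phosphorylated UPF1, were both higher on both scales. SMG5 (chromosome 1, 156249224-156282825, minus strand), the adaptor toward deadenylation and decapping, was at 1.56 and 1.43 TPM in input and 11.94 and 9.98 TPM in Flag-IP, with a ratio of 7.33. Its aligned difference was 1.28 ± 0.12 (limma adjusted p = 0.00124), and 150 of the tested genes had a larger one. SMG6 (chromosome 17, 2059839-2303771, minus strand), the endonuclease, was at 0.34 and 0.49 TPM in input and 3.20 and 2.73 TPM in Flag-IP, with a ratio of 7.14. Its difference on the same scale was 0.83 ± 0.10 (limma adjusted p = 0.00247), an understatement at so low an input level. With an input mean of 0.415 TPM, SMG6 passed the filter only through Flag-IP, while SMG8 at 0.42 TPM in input did not pass it. With no filter the aligned difference of SMG6 was 0.81 ± 0.10 (limma adjusted p = 0.0188).

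SMG5 over SMG6 was 4.59 and 2.92 in input and 3.73 and 3.66 in Flag-IP, so the groups overlapped, with a wide gap between the inputs themselves.

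**Figure D3:**
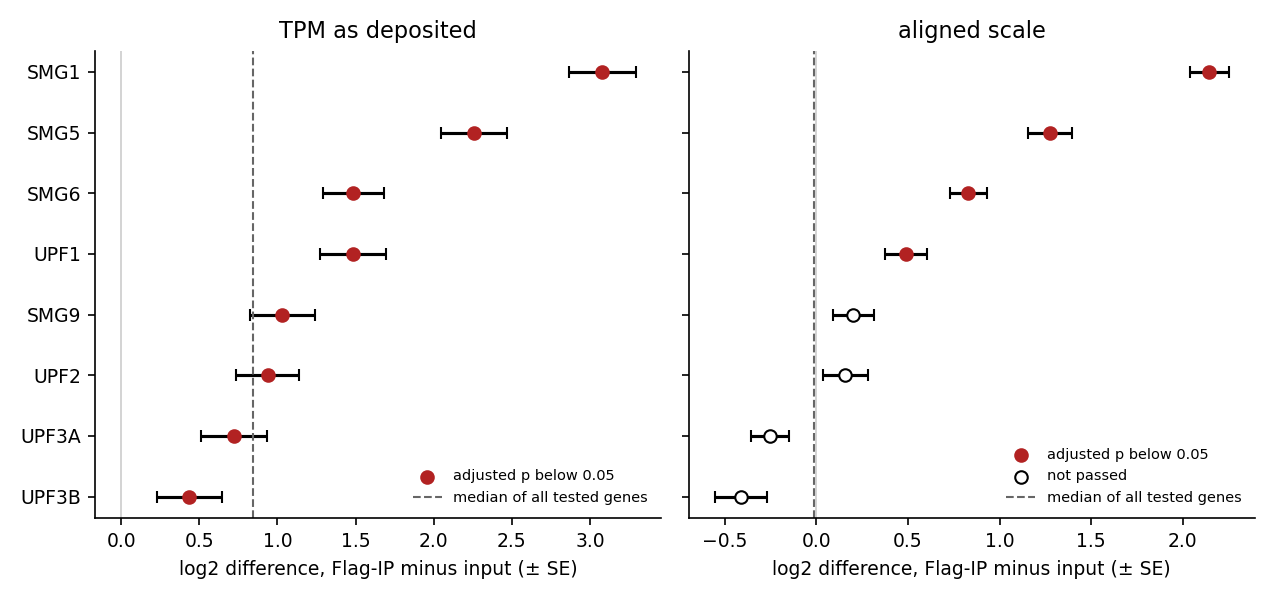
Log2 difference of log2(TPM + 1), Flag-IP minus input, ± SE for the 8 tested decay factors, on the deposited scale (left) and the aligned scale (right); filled points have an adjusted p below 0.05 and the dashed line is the median of all 6487 tested genes. All 8 are filled on the left, and on the right SMG1, SMG5, SMG6 and UPF1 are.

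Counted over the 8 tested members, all 8 were called higher and none lower on the deposited scale, where 86.6% of all tested genes were called higher and 0.740% lower. That count is close to the background. In all 8 each Flag-IP library exceeded each input, as was so for 93.1% of tested genes, against 1.09% with Flag-IP entirely below. The median difference of the 8 was 1.26, beside 0.84 for all tested genes.

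On the aligned scale 4 of the 8 were called higher and none lower, against 22.3% and 18.6% of all tested genes. Flag-IP lay entirely above input for 5 members and entirely below for 2 (37.0% and 37.1% of all tested genes), and UPF2 overlapped. The median of the 8 was 0.35, beside -0.01 for all. SMG1, SMG6 and UPF2 had input means under 1 TPM and entered the test through Flag-IP, so these counts and medians describe the members that passed the filter and not all 9. On the deposited scale with structural RNAs left out before rescaling, 5 of the 8 were called higher (SMG1, SMG5, SMG6, SMG9 and UPF1). So were 2206 of 6283 genes. UPF3A and UPF3B changed sign there, from 0.72 and 0.44 to -0.08 and -0.37, and did not pass (limma adjusted p = 0.686 and 0.195). On the aligned scale with structural RNAs left out, 4 of the 8 were called higher and 1 lower. The lower one was UPF3B (-0.62, limma adjusted p = 0.0361).

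As a share of the summed TPM of the 9, which ran from 10.52 and 12.61 TPM in input to 58.63 and 45.33 TPM in Flag-IP, the makeup of the group shifted toward 3 members. SMG1 went from 8.38% ± 0.520 to 30.2% ± 1.47 (SD, n = 2), SMG5 from 13.1% ± 2.47 to 21.2% ± 1.17 and SMG6 from 3.56% ± 0.462 to 5.74% ± 0.399. The shares of the other 6 were below both inputs in each Flag-IP library. UPF3A, the most abundant of the 9 in input, went from 21.5% ± 1.17 to 9.16% ± 0.0801, and UPF3B from 14.1% ± 0.953 to 4.96% ± 1.18. Shares must sum to 100%, so a gain of SMG1 lowers the rest. With SMG1 left out of the sum, UPF1 overlapped between groups (20.5% and 17.9% in input, 19.1% and 22.5% in Flag-IP). UPF3A still went from 23.4% ± 1.15 to 13.1% ± 0.162 in that sum. There SMG5 went from 14.3% ± 2.77 to 30.4% ± 1.03 and SMG6 from 3.88% ± 0.483 to 8.22% ± 0.399. Their gain lowers the rest in the same way. These shares are a description and were not tested.

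**Figure D4:**
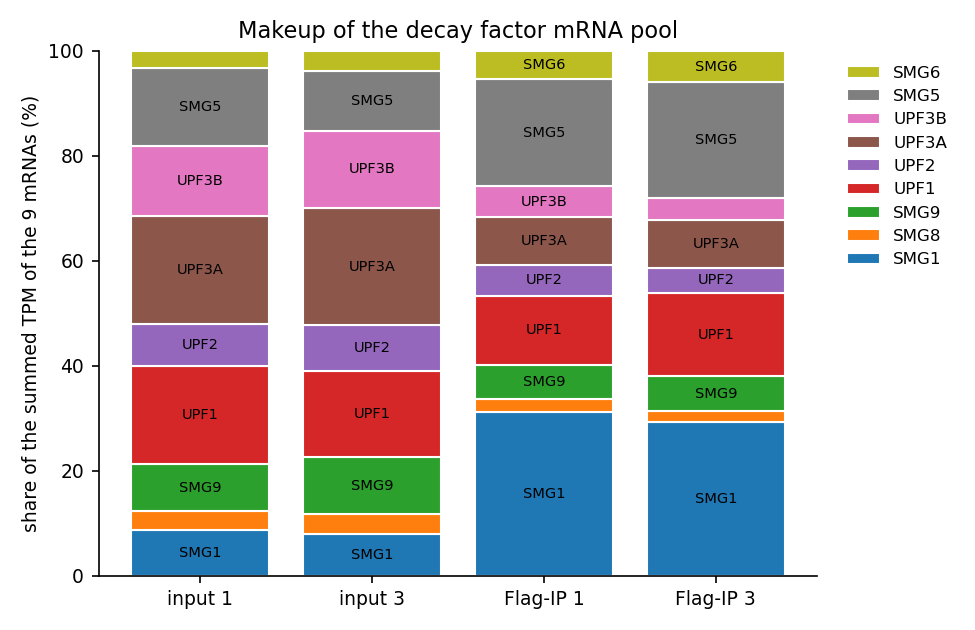
Share of each member in the summed TPM of the 9 decay factor mRNAs (y, percent) in each of the 4 libraries. SMG1 and SMG5 take up more of the bar in both Flag-IP libraries than in the inputs, and UPF3A and UPF3B take up less.

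The order of the levels was different in the 2 groups. In input it ran UPF3A, UPF1, UPF3B, SMG5, SMG9, SMG1, UPF2, SMG8 and SMG6, from a mean of 2.49 TPM down to 0.415 TPM. The ranges of UPF3B and SMG5 overlapped, as did those of SMG9, SMG1 and UPF2 from each neighbour to the next, and those of SMG8 and SMG6. In Flag-IP it ran SMG1, SMG5, UPF1, UPF3A, SMG9, SMG6, UPF2, UPF3B and SMG8, from 15.8 to 1.20 TPM. The first 4 were separate from their neighbours and the next 4 overlapped. Flag-IP 1 was above Flag-IP 3 for all 9, which the median-ratio factors of 1.73 and 1.40 for those 2 libraries also show for the typical gene.

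Apart from SMG1, most members could be told from other genes by sequence. No stretch of 50 bases of SMG5, SMG6, UPF1, UPF2 or UPF3B occurred in the transcripts of another annotated gene, and 0.110% of those of SMG9 did. SMG8 shared 11.0%, with a gene annotated over it on the same strand (AC099850.2, 422 exonic bases). UPF3A shared 42.1%, with its intronless pseudogenes. In UPF3A a window in exon 9 (chr13:114301750-114301839, GRCh38, plus strand) is printed beside its 3 pseudogene copies, because reads from such a stretch can be hard to place, with capitals again for the bases that differ. These 3 copies are not analysed here, and whether reads were divided among them is not given in the sources used here, so the level of UPF3A is also uncertain. Exons of SMG6 overlap HIC1 by 1780 bases and SRR by 68 on the opposite strand, and whether the counting used strand is not given. HIC1 was at most 0.01 TPM in any library, and SRR was at 0.13 and 0.23 TPM in input and 0.80 and 0.78 TPM in Flag-IP. An antisense gene, AC138811.1, overlaps 171 exonic bases of SMG1.
UPF3A exon 9: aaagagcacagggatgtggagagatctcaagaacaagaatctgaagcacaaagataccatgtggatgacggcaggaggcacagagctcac
UPF3AP1: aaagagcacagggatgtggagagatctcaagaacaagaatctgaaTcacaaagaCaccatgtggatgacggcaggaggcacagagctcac
UPF3AP2: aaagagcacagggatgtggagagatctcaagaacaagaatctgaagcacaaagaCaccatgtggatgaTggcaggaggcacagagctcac
UPF3AP3: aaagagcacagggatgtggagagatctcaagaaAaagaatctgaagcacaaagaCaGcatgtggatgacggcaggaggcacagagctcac

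The members differ widely in length. SMG1 has 16115 bases and 63 exons in its longest mRNA, and the 3 other members called higher on the aligned scale have 4559 (SMG5), 5960 (SMG6) and 5348 bases (UPF1) in 22, 19 and 24 exons. UPF3A and UPF3B are the shortest, with 2423 and 2378 bases and 10 and 11 exons (for UPF3A the exons and motifs are those of its principal transcript of 2387 bases). UPF2, SMG9 and SMG8 have 5569, 5510 and 3477 bases in 21, 14 and 5 exons. The median of 5978 tested protein-coding genes is 3565 bases and 11 exons. Across the 8 tested members the aligned difference had a Spearman rho of 0.67 with transcript length and 0.81 with exon number, and across the 5978 genes 0.47 and 0.57. These are correlations across genes in the same 4 libraries, given as a description. With the length trend over all genes removed, SMG1, SMG5 and SMG6 were called higher (1.53, 1.16 and 0.61, limma adjusted p = 0.000758, 0.00213 and 0.00574). UPF1 was not (0.30, limma adjusted p = 0.0918). A trend on exon number was not removed.

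N6-methyladenosine is known to be placed mostly in short motifs of which GGACT is a common form. GGACT was counted on the transcript strand alone, where it cannot overlap itself. It was found 12 times in the SMG1 mRNA (0.745 per kb), 8 in SMG5 (1.75 per kb) and 7 in UPF1 (1.31 per kb). SMG6 held 5 (0.839 per kb), UPF3B 2 (0.841 per kb) and UPF3A 1 (0.419 per kb). SMG9 held 7 (1.27 per kb), SMG8 6 (1.73 per kb) and UPF2 5 (0.898 per kb). The median of the tested protein-coding genes was 0.953 per kb, and 91.3% held at least 1. The Spearman rho of motif density with the aligned difference was 0.19 over the 8 tested members (SMG8 left out) and 0.03 over all. A match says nothing of methylation, which was not measured here.

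Of 42 other genes of the pathway and its surroundings, 36 were tested. Of these, 10 were higher on the aligned scale, 7 lower and 19 did not pass, which is near the shares of all tested genes (22.3% and 18.6%), with a median of 0.0047 beside -0.01 for all tested genes. The lower calls numbered 1 without Flag-IP 1, 2 without input 3, 4 without Flag-IP 3, 6 without input 1 and 3 with no filter. On the deposited scale 34 were higher and none lower (1 lower without Flag-IP 3), beside 86.6% higher among all tested genes. On the aligned scale, 7 of the 9 tested chaperones and relatives of SMG1 were higher and 1 lower. Among all tested genes 22.3% were higher and 18.6% lower on that scale. As deposited all 9 were higher, beside 86.6% of all tested genes. ATM, ATR, TELO2 and TTI1 averaged under 1 TPM in input and passed the filter only through Flag-IP. These counts are therefore a description and were not tested. TRRAP, ATM, ATR and MTOR are giant proteins of the same kinase family as SMG1. Their aligned differences were 1.63 ± 0.10, 1.32 ± 0.16, 1.10 ± 0.14 and 1.06 ± 0.10. TELO2 and TTI1, which help fold that family, had 0.49 ± 0.14 and 0.46 ± 0.10, and the kinase PRKDC, of the same family, had 0.46 ± 0.11. RUVBL2, an ATPase of the same chaperone system, was lower on the aligned scale, at -0.58 ± 0.12. As deposited it was higher (0.55 ± 0.21, limma adjusted p = 0.0123).

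Among further factors of the pathway 2 of 6 were higher and 2 lower on the aligned scale, against 22.3% and 18.6% of all tested genes. As deposited all 6 were higher, beside 86.6% of all tested genes. DHX34, a helicase that promotes UPF1 phosphorylation, went from 0.42 and 0.40 TPM in input to 5.43 and 5.1 TPM in Flag-IP. Its aligned difference was 1.42 ± 0.11. DHX34, too, passed the filter only through Flag-IP. NBAS, which takes part in decay at the endoplasmic reticulum, had 0.73 ± 0.11. SEC13 and GNL2 were lower on the aligned scale, at -0.48 ± 0.10 and -0.34 ± 0.11 (limma adjusted p = 0.0139 and 0.0476). As deposited both were higher, at 0.69 ± 0.22 and 0.64 ± 0.21.

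The exon junction complex, which marks where introns were removed, had no higher and 2 lower genes of 7. They were PYM1, a protein that takes the complex apart (-0.99 ± 0.16), and the core subunit RBM8A (-0.42 ± 0.12). On this aligned scale 22.3% of all tested genes were higher and 18.6% lower, the background for each count here. None of the 3 tested release and termination genes passed. Of 9 cap-binding and decay genes, EDC4, a scaffold of decapping, was higher (0.41 ± 0.12, limma adjusted p = 0.0416). NCBP2, a subunit of the nuclear cap-binding complex, was lower (-0.33 ± 0.10, limma adjusted p = 0.0429). As deposited NCBP2 was higher (0.45 ± 0.20, limma adjusted p = 0.0293). Of the 2 Staufen genes, which recruit UPF1 to other mRNAs, STAU1 was lower (-0.49 ± 0.12). As deposited STAU1 was higher (0.46 ± 0.21, limma adjusted p = 0.0346).

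Of 14 transcripts known as substrates of the pathway 11 were tested. On the aligned scale 4 were higher and 1 lower, against 22.3% and 18.6% of all tested genes. The snoRNA host transcripts SNHG12, SNHG15 and SNHG1 were higher at 1.57 ± 0.24, 1.56 ± 0.11 and 0.33 ± 0.10 (limma adjusted p = 0.0442 for SNHG1). ASNS, the asparagine synthetase, was higher at 0.84 ± 0.15. ATF4, the transcription factor of the stress response that drives ASNS, was lower at -1.05 ± 0.10, with 13.76 and 16.29 TPM in input and 17.58 and 15.72 TPM in Flag-IP. SNHG12, SNHG15 and ASNS averaged under 1 TPM in input and passed the filter only through Flag-IP. The other 6 did not pass the test, among them the snoRNA hosts ZFAS1 and GAS5 (0.31 ± 0.10 and 0.14 ± 0.17, limma adjusted p = 0.0532 and 0.539). On the deposited scale 10 of the 11 were higher, near the 86.6% of all tested genes.

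**Figure D5:**
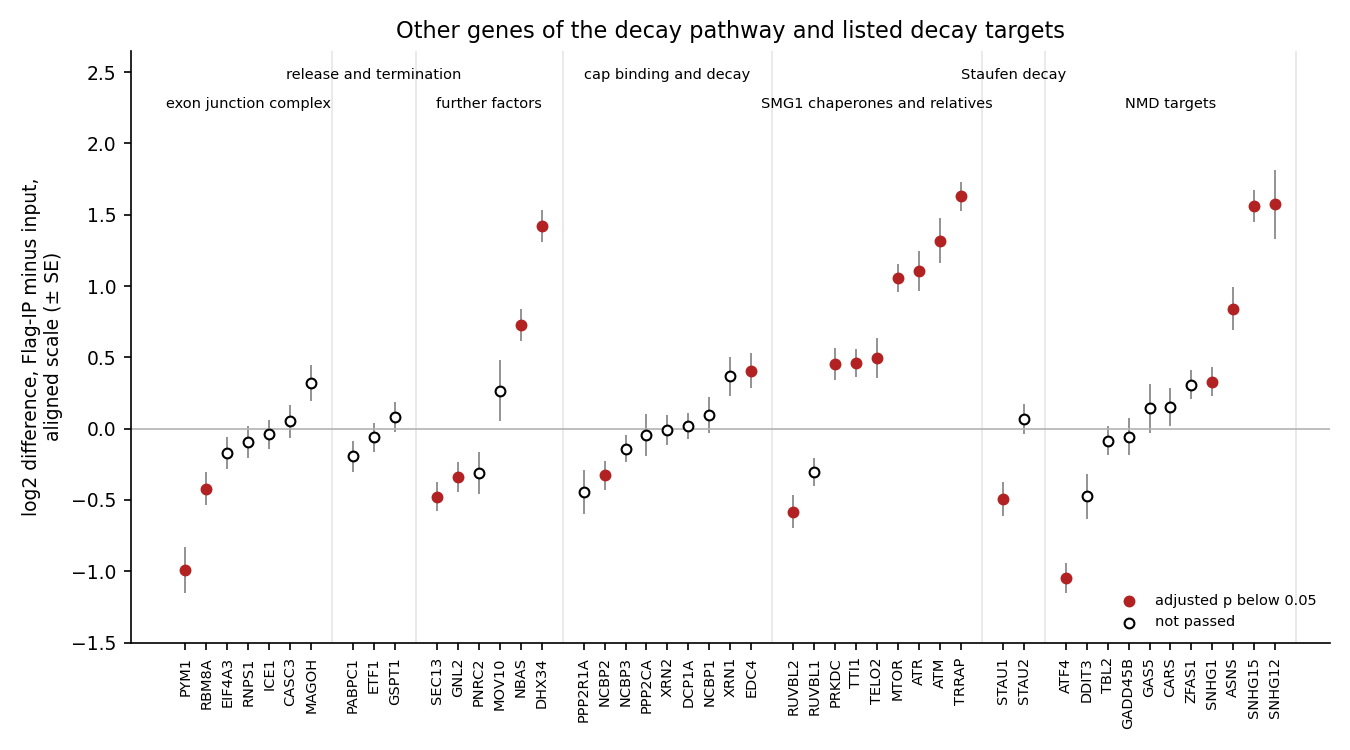
Aligned log2 difference, Flag-IP minus input, ± SE for the 36 tested genes of the wider pathway, grouped by role, and the 11 tested substrates; filled points have an adjusted p below 0.05. The relatives of SMG1 reach 1.63 (TRRAP), and ATF4 (-1.05) and PYM1 (-0.99) are the lowest.

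The genes nearest to SMG1 in level over the 4 libraries, by Euclidean distance of log2(TPM + 1) with its copies left out, were OGT (0.20), KMT2B (0.32) and SLC17A9 (0.32). OGT, for example, was at 0.82 and 1.19 TPM in input and 19.95 and 14.09 TPM in Flag-IP. Nearest to UPF1 were TRERF1 (0.12), NCAPD3 (0.13) and SCMH1 (0.14). Distance by 4 values is a description of likeness in these libraries.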

How the data were processed

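The authors deposited TPM per gene symbol for 2 input and 2 Flag-IP libraries, rounded to 2 decimals. Per the submitters' processing notes, STAR, RSEM and GRCh38 were used. Not stated in the sources used here were versions, annotation and whether counting used strand. Sequencing depth is unknown.

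limma 3.58.1 in R 4.3.3 (lmFit, eBayes with trend) was fitted to log2(TPM + 1) of genes averaging 1 TPM or more, two-sided, with Benjamini-Hochberg adjustment over all 6487 genes and a threshold of 0.05. For the aligned scale, each library was divided by a median-ratio factor, the median of TPM over the gene's geometric mean across libraries, over tested genes listed above 0 throughout. Residual degrees of freedom were 2. Prior degrees of freedom were infinite (deposited) and 4.02 (aligned). Transcripts, coordinates and sequences come from GENCODE 29 (GRCh38), matched for 23819 symbols directly and 24 by an older symbol, with 51 ambiguous and 2936 unmatched. Stretches of 50 bases, exon numbers and motifs were taken from 1 principal transcript per gene, and the stretches were sought in the transcripts of all other genes. Printed shared windows of 90 bases were chosen for at most 4 mismatches in the copies. For SMG1 the window was the one found in the most copies with the fewest mismatches, but at least 1.

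The members and all lists were chosen with earlier results of these data known, and 1 gene of the pathway list is not reported here. Named were the 9 members, the SMG1P copies, ALKBH5, up to 12 pathway genes past the aligned threshold (those with the largest differences, a ranking set after the values were seen) and the 3 genes nearest to SMG1 and to UPF1. Outside that rule PRKDC, EDC4, NCBP2, GNL2, RBM8A, the called substrates, GAS5 and ZFAS1 were named after their values were seen. The same holds for NKG7, CD14, PECAM1, the other myeloid markers named and the overlapping genes.

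Alternatives were scaling by quantiles, a filter at 5 TPM or none, 0.1 as pseudocount, eBayes without trend, a replicate block, SMG1 summed with its copies, the pool without SMG1, each library left out in turn, structural RNAs left out of the scaling and the length trend removed (loess, span 0.5). A crossed replicate block was added after seeing the data.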

Additional observations from a re-analysis of the deposited data

How the results depend on the processing

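With 2 libraries a group the tests are weak, and TPM hides depth. Over 14 alternatives, the members' differences gave 99 values per scale. On the deposited scale 85 kept direction and side of the threshold, 10 lost the call and 4 reversed. On the aligned scale 90 kept both, 4 lost a call, 4 gained one and 1 without a call changed sign. Of the tested members, SMG1 and SMG5 kept their calls under every alternative run on either scale. SMG6 kept its calls wherever it was tested, which leaves out the filter at 5 TPM. The cause of the changes below was not tested, except that a filter at 5 TPM leaves only 2 members.

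The reversed values were UPF3A at -0.28 and UPF3B at -0.48 with quantile scaling, and -0.0829 and -0.37 with structural RNAs left out. Members called higher on the deposited scale (8) numbered 2 at a filter of 5 TPM, 4 with quantile scaling and 5 with structural RNAs left out, and those called lower (0) numbered 1 with quantile scaling. On the aligned scale those called higher (4) numbered 2 at 5 TPM, and those called lower (0) numbered 1 with quantile scaling, with structural RNAs left out and with the crossed replicate block. The deposited median (1.26) was 2.67 at 5 TPM, 1.03 with no filter, 1.66 with a pseudocount of 0.1, 0.30 with quantile scaling, 0.69 with structural RNAs left out and 1.08 with the length trend removed. The aligned median (0.35) was 1.88, 0.17, 0.45, 0.30, 0.44 and 0.15 in the same order.

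Genes called higher and lower among all tested (5616 and 48 deposited, 1444 and 1207 aligned) numbered 1272 and 25, and 392 and 355, at 5 TPM. Deposited counts were 1243 and 1219 with quantile scaling and 2206 and 711 with structural RNAs left out, and 26 were lower with the length trend removed. Other pathway genes called higher (34 deposited, 10 aligned) numbered 8 and 2 at 5 TPM, and 8 with quantile scaling and 12 with structural RNAs left out on the deposited scale. Those called lower (0 deposited, 7 aligned) numbered 8 with quantile scaling and 2 with structural RNAs left out on the deposited scale, and 1 at 5 TPM and 3 with no filter on the aligned scale.

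Leaving out 1 library at a time, members called higher ranged from 6 to 8 deposited and 3 to 4 aligned. Members called lower ranged from 0 to 0 deposited and 0 to 1 aligned, the 1 without Flag-IP 1. The members' median ranged from 1.14 to 1.36 and from 0.32 to 0.40. All genes called higher ranged from 4198 to 5340 and from 897 (without Flag-IP 1) to 1225, and lower from 32 to 62 and from 567 (without Flag-IP 1) to 916. Other pathway genes called higher ranged from 25 to 33 and from 7 to 9, and lower from 0 to 1 and from 1 (without Flag-IP 1) to 6, with 2 without input 3 and 4 without Flag-IP 3.

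The numbers 1 and 3 are shared by the groups, but the labels do not say that they pair libraries, and the same-number correlation was -0.17 deposited and -0.19 aligned. With the replicate block, 7 members were higher on the deposited scale and 4 on the aligned scale. With the crossed replicate block, 8 and 4 were higher and 0 and 1 lower.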
